A study of Mus musculus with 5 samples.

Results

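Fasn, Acaca and Acly are 3 of the 64 genes on a capture panel measured in mouse hepatocytes during fasting, and they encode the enzymes that build fatty acids from citrate. They were chosen by name, and their order and speed of fall, their position along the liver lobule and their coupling within a library are described here over all 5 libraries. The cells were hepatocytes isolated from male C57BL/6J mice, all of them wild-type and kept on normal chow. The mice had been trained for 3 days on 16 h without food and 8 h with food. On the last day their water held 20% sucrose, which was withdrawn together with the food when fasting began. The fed library (0 h) was taken after 4 h of feeding. The other libraries followed 8, 16, 24 and 30 h of fasting, and the 5 libraries fell on clock hours 13, 21, 5, 13 and 19, so fasting time and clock hour changed together except between 0 and 24 h. There was 1 library per time, and how many mice stand behind each is not stated in the sources used. No value below therefore has a replicate error, no test was made, and every interval is a 95% interval that covers counting error only.

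Fatty acid synthesis turns surplus carbohydrate into fat. ATP citrate lyase (Acly) splits citrate in the cytosol into acetyl-CoA and oxaloacetate, acetyl-CoA carboxylase (Acaca) makes malonyl-CoA from acetyl-CoA, and fatty acid synthase (Fasn) joins these units into palmitate. In the liver this pathway is known for being on after a carbohydrate meal and off in fasting. Insulin acts on it largely through SREBP-1c, a product of Srebf1, and glucose through ChREBP, the product of Mlxipl. Acly also supplies acetyl-CoA for cholesterol synthesis and for histone acetylation. Synthesis of fat is usually placed on the pericentral side of the lobule and glucose production on the periportal side.

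All 3 genes lie on mouse chromosome 11 (GRCm38). Fasn (ENSMUSG00000025153) spans 120805846 to 120824547 on the minus strand, Acaca (ENSMUSG00000020532) spans 84129672 to 84401651 on the plus strand, and Acly (ENSMUSG00000020917) spans 100476353 to 100528000 on the minus strand. No exon of another annotated gene overlaps theirs on either strand. Since the 3 genes fell together, the 250 bases before the RefSeq start (build GRCm38.p6) of Fasn and of Acly are shown, 5′ to 3′ on the gene's strand, because they are the regions where regulators of the pathway are known to bind. Capitals mark matches to a CCAAT box (CCAAT) in Fasn, of which the pair nearest the start overlap by 2 bases, and to a GC box (GGGCGG) in Acly, each searched on both strands.
Fasn: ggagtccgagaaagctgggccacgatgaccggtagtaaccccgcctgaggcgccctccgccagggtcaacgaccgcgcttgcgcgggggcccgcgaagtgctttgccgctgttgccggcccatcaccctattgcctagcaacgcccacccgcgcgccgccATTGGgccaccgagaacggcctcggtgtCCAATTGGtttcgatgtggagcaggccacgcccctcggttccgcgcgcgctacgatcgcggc
Acly: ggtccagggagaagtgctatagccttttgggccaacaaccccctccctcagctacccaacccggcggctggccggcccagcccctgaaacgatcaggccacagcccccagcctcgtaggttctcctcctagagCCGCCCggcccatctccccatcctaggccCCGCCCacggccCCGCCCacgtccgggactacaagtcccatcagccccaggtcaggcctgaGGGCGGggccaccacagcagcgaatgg
The Fasn window lies at chr11:120824548-120824797 and holds 3 CCAAT matches and no GC box. The Acly window lies at chr11:100528001-100528250 and holds 4 GC boxes and no CCAAT match. Of 32851 promoter windows of this length, 33.85% held CCAAT and 32.74% held GGGCGG. Neither window held an E-box (CACGTG, in 6.021% of windows) or the letters TCACNCCAC of a sterol regulatory element core (in 1.053%). The RefSeq window of Acaca (chr11:84195188-84195437) ends 65766 bp inside the gene, at 1 of 8 annotated starts, and held none of these motifs. Counts from transcript 3′ ends do not show which start was used, so this window is not printed. A match is a description of the letters and was not tested as a site. The search took these exact letters only, so the lack of a match does not show that a site is missing.

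The 5 libraries held 47473 barcodes and between 3979629 (8 h) and 11288725 (30 h) UMIs, which are counted molecules of the panel genes. The 8 h library stood apart, with a median of 219 UMIs per barcode against 651 to 1202.5 in the others. Alb, the hepatocyte albumin gene, took 69.4% to 71.8% of the UMIs of each library, so a level per 1000000 panel UMIs (CPM) is largely a level relative to Alb. The 6 panel genes of other liver cell types summed to 76.2, 220, 34.4, 43.2 and 29.7 CPM at 0, 8, 16, 24 and 30 h, and in barcodes with 300 or more UMIs to between 22.1 and 55.2 CPM, and their part in the results was not tested. A sequence of 238 barcodes occurred in more than 1 library. Because counts were not made per transcript length, levels are compared between libraries and not between genes.

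All 3 enzymes fell in every fasted library, Fasn furthest and Acaca least. Fasn was already 6.21-fold lower at 8 h and reached its lowest level at 24 h, while Acaca and Acly were lowest at 30 h. In time order (0, 8, 16, 24 and 30 h, the order of every series of values below) Fasn had 27202, 4378, 1862, 892 and 943 CPM. Exact Poisson intervals ran from 27085 to 27320 in the fed library, 874 to 910 in the 24 h library and 926 to 962 in the 30 h library. No fasted library overlapped the fed one, and the libraries at 24 and 30 h were close to each other. The log2 ratios of Fasn to 0 h were -2.64 (-2.66 to -2.61), -3.87, -4.93 and -4.85, the third being 30.5-fold lower. Per barcode, Fasn went from 28.5 UMIs in the fed library to 1.09 in the 24 h library, while the mean of all panel UMIs went from 1047 to 1219.

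Acly had 20793, 6114, 2547, 2038 and 1264 CPM in the 5 libraries, the last with an interval of 1243 to 1285. It was lower in each library than in the one before, with the smallest difference between 16 and 24 h. Its log2 ratios to 0 h were -1.77, -3.03, -3.35 and -4.04 (-4.07 to -4.02), or 16.5-fold lower at 30 h. Acaca, the gene of the committed step, had 3125, 1477, 568, 366 and 306 CPM, the last with an interval of 296 to 316. It too was lower in each library than in the one before. Per barcode the step from 16 to 24 h turned for both genes, from 1.66 to 2.48 UMIs for Acly and from 0.369 to 0.446 for Acaca, and without Alb it was a fall, from 8745 to 7226 and from 1949 to 1297 UMIs per 1000000. Its log2 ratios to 0 h were -1.08 (-1.12 to -1.04), -2.46, -3.09 and -3.35 (-3.41 to -3.30), or 10.2-fold lower at 30 h.

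All 3 genes were over 2-fold below 0 h in each of the 4 fasted libraries. Of the 56 panel genes that reached 100 UMIs over the 2 libraries compared, 12.5%, 28.6%, 23.2% and 26.8% were over 2-fold lower in the 4 fasted libraries. The Acaca value at 8 h lay near this limit, and was -0.99 with Alb left out of the denominator and -0.74 as the mean of per-barcode CPM. Ranked from the largest fall, Fasn held places 2, 1, 1 and 2 of the 56 genes in the 4 fasted libraries. Acly held place 4 in each, and Acaca places 7, 6, 5 and 6. The median gene of the panel moved little, between -0.15 (16 h) and 0.047 (8 h).

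**Figure D1:**
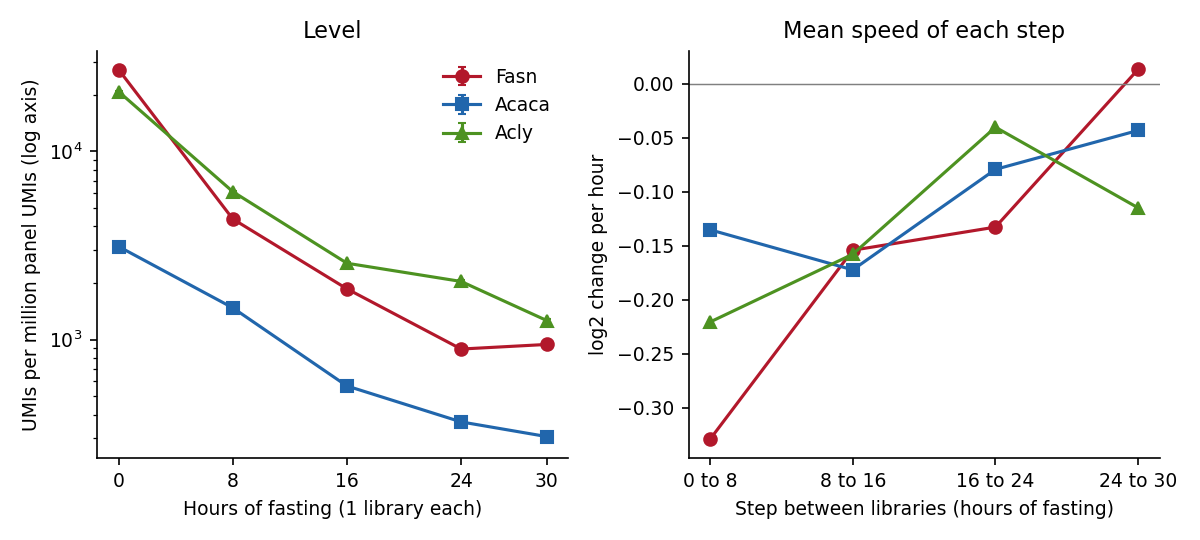
Level of Fasn, Acaca and Acly in UMIs per 1000000 panel UMIs against hours of fasting (left, log axis, error bars are 95% Poisson intervals and mostly smaller than the points) and the log2 change per hour of each step between libraries (right, n = 1 library per time). The Fasn curve drops most steeply from 0 to 8 h (-0.33 per hour), and the Fasn step from 24 to 30 h is the 1 step above 0.

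The order of the fall did not depend on a denominator, since a difference between the log2 changes of 2 genes cancels it. The log2 change of Fasn minus that of Acly was -0.87 (-0.90 to -0.84), -0.84, -1.58 and -0.81 in the 4 fasted libraries. Acaca lay above Acly by 0.68, 0.57, 0.26 and 0.69 at the same times. The order Fasn, Acly, Acaca, from the largest fall to the smallest, was thus seen in 4 of 4 fasted libraries. The closest neighbours were Acaca and Acly at 24 h, with a counting interval of 0.20 to 0.31.

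The genes also differed in when they fell. In the first 8 h the mean speed on the log2 scale was -0.33 per hour for Fasn, -0.22 for Acly and -0.14 for Acaca. By 8 h Fasn had covered 53.4% of its largest log2 fall, Acly 43.7% and Acaca 32.3%. From 8 to 16 h the steps of the 3 genes in panel CPM were alike, at -1.23, -1.26 and -1.38 for Fasn, Acly and Acaca. From 16 to 24 h Fasn went on falling (-1.06) while Acly changed by -0.32 and Acaca by -0.63. From 24 to 30 h Acly fell again (-0.69), Acaca changed by -0.26, and Fasn was 0.081 higher (0.041 to 0.12). That last Fasn step was within 0.1 of no change and turned its direction with the scale. Fasn had 1.09 UMIs per barcode in the 24 h library and 1.06 in the 30 h library, and per 1000000 UMIs other than Alb 3162 and 3135.

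These uneven steps changed the mix of the 3 transcripts. Fasn UMIs per Acly UMI were 1.31, 0.716, 0.731, 0.438 and 0.747. The ratio was highest in the fed library and lowest at 24 h. Acaca UMIs per Acly UMI were 0.150, 0.241, 0.223, 0.179 and 0.242, so the fed library held the least Acaca for its Acly.

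The gene most like Fasn over the 4 fasted libraries was Elovl6, which elongates the palmitate that Fasn makes. Its log2 ratios to 0 h were -2.21, -3.78, -4.51 and -5.17, and the root-mean-square difference from Fasn was 0.34 over 4 libraries, among 52 genes that reached 100 UMIs in all libraries. Acly (1.07) and Srebf1 (1.31) came next. Srebf1, the gene of the transcription factor SREBP-1, had ratios of -4.77, -2.90, -3.92 and -4.26, so it was lowest at 8 h and not at 24 or 30 h. For Acaca the closest were Acly (0.58), Pklr (0.58) and Gpam (0.98). For Acly they were Acaca (0.58), Elovl6 (0.92) and Pklr (1.07). Pklr, liver pyruvate kinase of glycolysis, started later than any of the 3 enzymes, with ratios of -0.016, -2.07, -2.83 and -3.47. Gpam, which starts glycerolipid synthesis, had ratios of -1.65, -1.57, -1.96 and -2.18.

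Other genes of lipid synthesis on the panel did not all share this fall. Of 15 listed partners of fatty acid synthesis, 5 were on the panel besides the 3 enzymes, and Elovl6 was the 1 over 2-fold lower in each fasted library. Elovl5, an elongase of polyunsaturated fatty acids, was 1.53 above 0 h at 8 h and between 0.27 and 0.79 above it later. Scd1, the desaturase that acts on the products of Fasn, lay between -0.40 and 0.36 from its 0 h level, and the desaturases Fads1 and Fads2 between -0.43 and 0.46. The median log2 ratio of the 5 partners was -0.28, -0.017, 0.27 and -0.27 at 8, 16, 24 and 30 h, against panel medians of 0.047, -0.15, -0.12 and -0.071. Of 12 listed regulators, 4 were on the panel, and Srebf1 was over 2-fold lower at each time. Mlxipl had ratios of -0.34, -1.20, -1.62 and -1.71. Nr1h3, the oxysterol receptor LXR-alpha, and Usf1, a factor known to bind the Fasn promoter, lay between -0.70 and 0.0026. The median of the 4 was -0.45, -0.91, -1.16 and -0.88. Of 3 genes of glycerolipid assembly, Gpam was over 2-fold lower throughout, Dgat2 lay between -0.80 and -1.19, and Dgat1 between -0.37 and 0.47. Of 5 fasting genes, Pck1, which encodes an enzyme of glucose production, and Igfbp1 were over 2-fold higher in each fasted library, when 17.9%, 10.7%, 8.93% and 16.1% of the 56 panel genes were. Sds, which breaks down serine, had ratios of 1.49, 0.30, 0.95 and 2.10, and G6pc, the last enzyme of glucose production, lay between 0.49 and 0.98. Fgf21, a fasting hormone, had ratios of 0.32, 1.08, -1.19 and 1.55. The median of the 5 was 1.49, 1.08, 0.95 and 2.10.

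**Figure D2:**
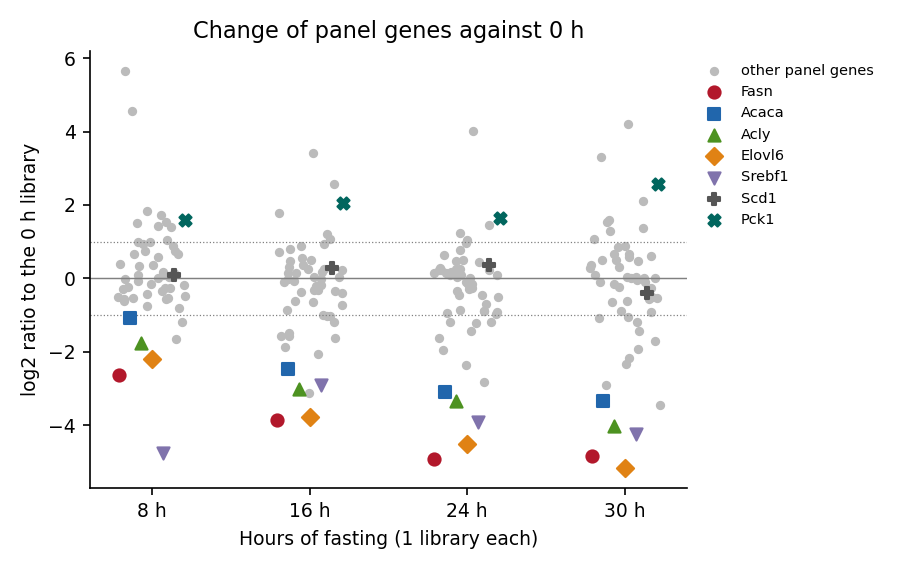
log2 ratio to the 0 h library of each panel gene that reached 100 UMIs over the 2 libraries compared, by hours of fasting (n = 1 library per time). Grey points are other panel genes, spread sideways at random, and dotted lines mark 2-fold. Fasn, Acly and Acaca keep the same order in each column, Elovl6 lies next to Fasn, Srebf1 is lowest at 8 h, and Scd1 stays near 0.

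The next comparison placed the 3 enzymes along the lobule. Barcodes of each library were ranked by the ratio of Cyp2e1 UMIs, high near the central vein, to Cyp2f2 UMIs, high near the portal vein, and cut into 5 equal bins, from bin 1 (periportal side) to bin 5 (pericentral side). A bin is a share of a library's barcodes and not a fixed place in the tissue. A pair of markers that took no part in the ranking followed their known zones when the end bins were compared. Glul, a gene of pericentral hepatocytes, stood at 1633 CPM in bin 1 and 5005 in bin 5 at 0 h and was higher in bin 5 in each library. Hsd17b13, listed as periportal, stood at 4514 and 2334 CPM and was lower in bin 5 in each library. Over bins 1 to 4 at 0 h both were nearly flat, with Glul between 1633 and 1889 CPM and Hsd17b13 between 4369 and 4514. By this pair the fed rank set apart mainly bin 5. Depth also fell along the rank, from a median of 1223.5 UMIs in bin 1 to 614 in bin 5 at 0 h, and at 8 h bins 3 and 4 held medians of only 138 and 134.

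In the fed library all 3 enzymes took a larger share of panel UMIs on the pericentral side. Fasn stood at 25038 CPM in bin 1 and 34554 in bin 5, Acaca at 3039 and 3543, and Acly at 19193 and 23903. The log2 ratios of bin 5 to bin 1 were 0.46 for Fasn (0.44 to 0.49), 0.22 for Acaca (0.16 to 0.28) and 0.32 for Acly (0.29 to 0.34). The direction rested on Alb, which stood at 725541 CPM in bin 1 and 531617 in bin 5. After Alb was left out of the denominator, these ratios were -0.31, -0.55 and -0.45, and per barcode -0.40, -0.64 and -0.55. In panel CPM 0 of the 3 enzymes was lower in bin 5 at 0 h, with 14% of 50 panel genes, and without Alb all 3 were, with 71.4% of 49. The position of 1 gene on its own thus followed the denominator, as it did for most of the panel.

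In the last 3 libraries, and not at 8 h, Fasn and Acly differed more along the rank than in the fed library. In panel CPM the log2 ratios of bin 5 to bin 1 for Acly in the 4 fasted libraries were 0.75 (0.70 to 0.81), -0.089 (-0.17 to -0.0093), -0.17 (-0.24 to -0.10) and -0.26 (-0.35 to -0.18). Fasn had ratios of 0.72, 0.61, 0.91 and 0.083, the last with an interval from -0.0096 to 0.18. Acaca had ratios of 0.70, 0.15, 0.57 and 0.15, and its intervals at 16 and 30 h included 0. Acly was thus lower in bin 5 than in bin 1 at 16, 24 and 30 h, when 14.3%, 16.3% and 22% of panel genes were, against 12.5% at 8 h. Without Alb the ratios of all 3 enzymes were negative in every fasted library, as were those of 68.1%, 68.8%, 72.9% and 79.6% of panel genes. The Acly values were then -0.12, -1.12, -1.24 and -1.26, the Fasn values -0.15, -0.42, -0.16 and -0.91, and the Acaca values -0.17, -0.88, -0.49 and -0.85.

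**Figure D3:**
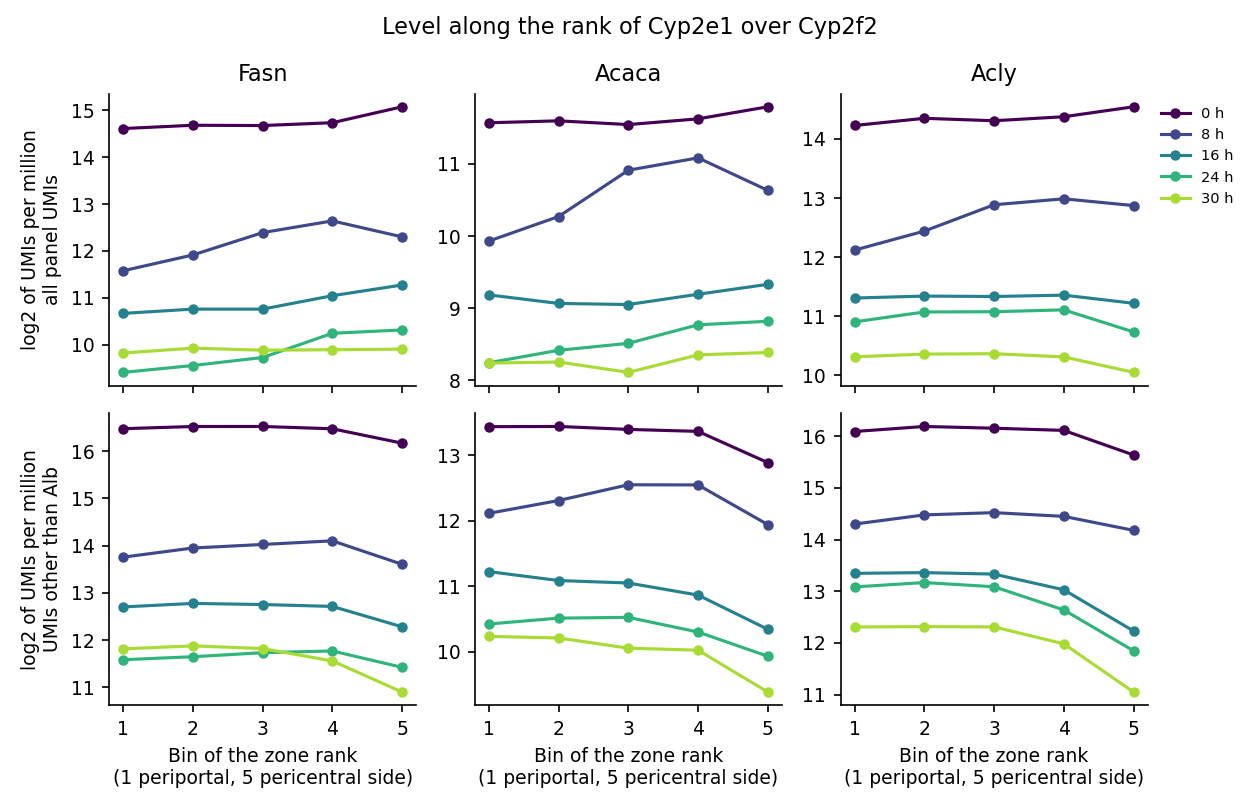
log2 level of each enzyme in bins 1 to 5 of the Cyp2e1 to Cyp2f2 rank, 1 line per library, per 1000000 panel UMIs (top) and per 1000000 UMIs other than Alb (bottom), with a separate vertical axis in each panel. The tilt between bins changes with the denominator, while the Fasn lines for 24 and 30 h cross in both rows between bins 3 and 4.

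The ratio of 1 enzyme to another within a bin needs no denominator. At 0 h there were 1.30 Fasn UMIs per Acly UMI in bin 1 and 1.45 in bin 5, with 1.26 to 1.29 in between. At 16 h the value was 0.640 in bin 1, 0.804 in bin 4 and 1.04 in bin 5. At 24 h it was 0.354, 0.349, 0.391, 0.548 and 0.746 from bin 1 to bin 5. The 24 h library thus held the widest range, and its Fasn deficit relative to Acly was deepest on the periportal side. On the log2 scale the ratio in bin 5 exceeded that in bin 1 by 0.15 (0.12 to 0.18) in the fed library. The excess was 0.70 (0.58 to 0.81), 1.08 (0.96 to 1.19) and 0.35 (0.22 to 0.47) in the last 3 libraries. In the 8 h library the difference was -0.030 (-0.12 to 0.060), in the library with the shallow middle bins. Compared with 0 h the difference was larger by 0.55, 0.93 and 0.20 (0.070 to 0.33) in the last 3 libraries. Across 5 alternatives (3 or 10 bins, deeper barcodes, more zone UMIs, or no barcodes with the most UMIs) the end-bin difference in those libraries lay between 0.55 and 0.81, 0.96 and 1.11, and 0.23 and 0.47.

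The ratio of Acaca to Acly also tilted towards bin 5 in the last 3 libraries. Acaca UMIs per Acly UMI went from 0.158 in bin 1 to 0.265 in bin 5 at 24 h, and from 0.237 to 0.315 at 30 h, while the fed library held 0.158 and 0.148. The log2 differences between end bins were -0.095 (-0.16 to -0.029), -0.051 (-0.19 to 0.085), 0.24 (0.059 to 0.41), 0.74 (0.58 to 0.91) and 0.41 (0.23 to 0.59). For Fasn over Acaca the differences were 0.24, 0.021, 0.46, 0.33 (0.16 to 0.51) and -0.064, and the second and the last had intervals that included 0. Acaca thus lay nearer to Fasn than to Acly at 24 and 30 h, and nearer to Acly at 0 and 16 h.

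**Figure D4:**
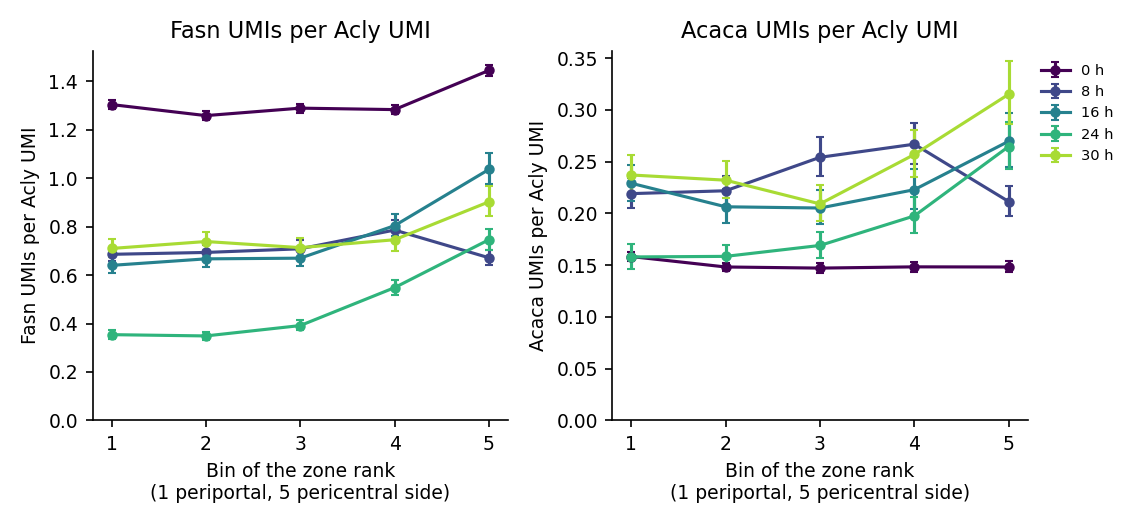
Fasn UMIs per Acly UMI (left) and Acaca UMIs per Acly UMI (right) in bins 1 to 5 of the zone rank, 1 line per library, with 95% intervals from the counts. Fasn per Acly climbs from 0.354 to 0.746 at 24 h, against 1.30 to 1.45 at 0 h, and Acaca per Acly climbs at 24 and 30 h.

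The small overall Fasn step from 24 to 30 h was made of opposite steps in bins of the same number. Fasn went from 679 to 905 CPM in bin 1, 752 to 972 in bin 2 and 846 to 943 in bin 3. It went from 1211 to 949 in bin 4 and from 1273 to 958 in bin 5. In panel CPM the 24 h library thus had a rising profile and the 30 h library a level one, while without Alb bin 5 was below bin 1 in both, at 2750 against 3075 and 1913 against 3603. The log2 change was 0.41 in bin 1 (0.32 to 0.50), 0.37 in bin 2, 0.16 in bin 3, -0.35 in bin 4 and -0.41 in bin 5 (-0.51 to -0.31). Without Alb the 5 values were 0.23, 0.23, 0.088, -0.21 and -0.52, and per barcode 0.23, 0.12, 0.063, -0.20 and -0.55, so each bin kept its direction. Of 48 panel genes with enough UMIs, 3 (6.25%) rose in bin 1 and fell in bin 5 with intervals clear of 0, and without Alb 3 of 47 (6.38%) did. Acly fell in every bin over the same step, by log2 changes between -0.59 and -0.80, and Acaca changed by -0.0046 in bin 1 (-0.15 to 0.14) and by -0.43 in bin 5 (-0.60 to -0.27). The Acaca value in bin 1 lay between -0.19 and 0.22 under the alternatives run. Bins of the same number need not hold like cells in the 2 libraries. In bin 4, Hsd17b13 went from 2581 to 5689 CPM and Glul from 2335 to 1350 between 24 and 30 h. In the whole libraries they went from 3280 to 5914 and from 2156 to 1404 CPM. The part of bin content in the Fasn steps was not tested. Clock hour changed with fasting time from 24 to 30 h, and the 2 cannot be told apart.

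The last comparison asked whether barcodes rich in 1 enzyme were rich in the others. Correlations over barcodes were taken of each gene's share of panel UMIs, after removing the variance that counting alone gives, in barcodes with 300 or more UMIs. In the fed library the enzymes were well counted, with a median of 27 Fasn UMIs per barcode (10th to 90th percentile 10 to 53), 20 Acly UMIs (5 to 44) and 3 Acaca UMIs (1 to 7). Their spread between barcodes beyond counting was a coefficient of variation of 39.3% for Fasn, 46.6% for Acly and 35.4% for Acaca. At 24 h mean counts were down to 1.14 Fasn, 2.61 Acly and 0.466 Acaca UMIs per barcode.

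Fasn and Acly were among the most closely coupled pairs of the panel in the fed library and at 8 h. Their correlations were 0.83, 0.81, 0.46, 0.36 and 0.64 over 6704, 5159, 8260, 8064 and 9534 barcodes. These were places 6 of 946 gene pairs, 7 of 780, 283 of 703, 415 of 861 and 77 of 820. With Alb in the denominator the coupling was thus high in the first 2 libraries and near the middle of the panel at 16 and 24 h. Points share a library, a range of depths and the Alb share, and pairs of panel genes had a median of 0.25 to 0.38. Without Alb the values were 0.71, 0.69, 0.41, 0.29 and 0.68, and places 9 of 903, 7 of 741, 42 of 666, 147 of 820 and 16 of 780. On that scale the pair stayed in the upper part of the panel at 16 and 24 h, with lower values than at 0, 8 and 30 h. Within bins of the zone rank they were 0.83, 0.79, 0.49, 0.43 and 0.66.

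Pairs with Acaca could be read only at 0 and 8 h, so they do not show the later course. In the first 2 libraries Fasn and Acaca correlated at 0.65 and 0.67, and Acaca and Acly at 0.62 and 0.66. Without Alb these were 0.36 and 0.46, and 0.32 and 0.49. All 3 pairs of enzymes exceeded 0.3 at 0 and 8 h, as did 42.1% and 46.8% of all pairs. Leaving Alb out, the share was 13.4% and 14.3% and all 3 pairs still did. At 16, 24 and 30 h Acaca had under 0.5 UMIs per barcode, and its correlations there are not read. That leaves the pair of Fasn and Acly, which exceeded 0.3 in each of those libraries, as did 57.9%, 53.1% and 44.4% of all pairs. Without Alb it exceeded 0.3 at 16 and 30 h and not at 24 h (0.29), and 13.2%, 16.8% and 23.1% of all pairs did.

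The same coupling can be seen in summed UMIs. At 0 h the lowest 1341 barcodes by Fasn share held Acly at 10249 CPM and the highest 1341 held it at 30389 CPM, a log2 difference of 1.57 (1.54 to 1.60). Alb stood at 772622 and 593525 CPM in those barcodes, so without Alb the difference was 0.73. At 24 h the same split gave 1744 and 2173 CPM of Acly, a difference of 0.32 (0.25 to 0.39), or -0.026 without Alb. Counting noise in the low Fasn counts of that library also goes into this ranking, and its size was not separated here.

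The partners of the enzymes outside the 3 differed between libraries. In the fed library Pklr had the highest correlation with each of them, at 0.75 with Fasn, 0.64 with Acaca and 0.74 with Acly, and 0.52, 0.39 and 0.54 without Alb. Actb, a cytoskeletal gene, came next for Fasn (0.66) and Acaca (0.55), and for Acly Akr1d1 (0.62), a gene of bile acid synthesis, followed by Actb (0.60). The third place was held by Akr1d1 for Fasn (0.64) and by Dgat2, which completes triglyceride synthesis, for Acaca (0.53). Alb was lowest for all 3, at -0.71, -0.52 and -0.59. Since Alb took 69.4% of the UMIs that form the shares, negative values with it come in part from the scale. Dgat2 had -0.80 and Actb -0.74 with Alb in the same library. Elovl6, the gene closest to Fasn over time, correlated with Fasn at 0.40 over fed barcodes, and at -0.011 without Alb. In the 8 h library it was the second-highest partner of Fasn, at 0.61 and at 0.46 without Alb. In the last 3 libraries Elovl6 had 0.375, 0.423 and 0.246 UMIs per barcode over all barcodes. These lay under the limit of 0.5, and its correlations there are not read.

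Acly and Pck1 were more closely coupled in the last 3 libraries than in the fed one. The correlation of Acly with Pck1 was 0.14, 0.31, 0.51, 0.65 and 0.69. On this scale Pck1 was the highest partner of Acly outside the 3 in the last 3 libraries. Without Alb the values for Acly and Pck1 were 0.21, -0.011, 0.58, 0.70 and 0.70, and within bins of the zone rank 0.15, 0.29, 0.50, 0.64 and 0.73. Within bins Pck1 was not the highest partner of Acly at 16, 24 or 30 h. A different gene at each time stood above it, at 0.63, 0.65 (Akr1d1) and 0.79. Without Alb at 24 h, Akr1d1 reached 0.69 and Actb 0.59 with Acly, beside 0.70 for Pck1. High coupling with Acly was thus not particular to Pck1. The rise of the Acly and Pck1 value from the fed library to 16, 24 and 30 h was present on each of these scales, and at 8 h the value depended on Alb. Summed over barcodes at 24 h, the lowest and highest 1613 by Acly share held Pck1 at 20697 and 30861 CPM. Fasn correlated with Pck1 at 0.078, 0.23, 0.19, 0.29 and 0.41 in the 5 libraries, below the Acly value in each. Total UMIs moved with the Acly share too, with a median of 752 UMIs in the lowest and 1314.5 in the highest of those barcodes, and the part of depth in this result was not tested.

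**Figure D5:**
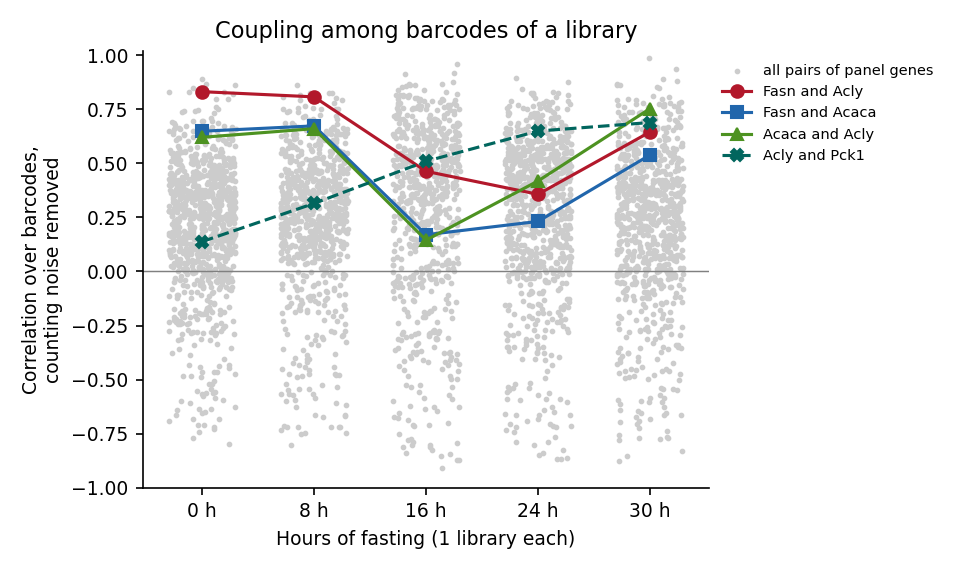
Correlation over barcodes with counting noise removed, by library (barcodes with 300 or more UMIs). Grey points are all pairs of panel genes with at least 0.5 UMIs per barcode, spread sideways at random. The Fasn and Acly line runs from 0.83 at 0 h through 0.36 at 24 h to 0.64 at 30 h, the Acly and Pck1 line climbs from 0.14 to 0.69, and the lines with Acaca rest on under 0.5 Acaca UMIs per barcode from 16 h on.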

How the data were processed

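The authors deposited 1 matrix of UMI counts of 64 genes by 47473 barcodes, not normalized, and a barcode table that gives the library of each barcode. Per the labels' protocols, droplet libraries that tag transcript 3′ ends (10x Genomics) were enriched for the panel by hybrid capture. The submitters' processing notes name Cell Ranger 6.0.1 and mm10 for these counts. They do not state the rule that called barcodes as cells. All barcodes were used and no doublet caller was run, since 64 genes give it too little. In its place, results were recomputed after dropping the top 5% of barcodes by UMIs.

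UMIs were summed per library and scaled to 1000000 panel UMIs (CPM), with exact Poisson intervals. Ratios had exact conditional binomial intervals, and differences of ratios normal intervals from the counts. The zone rank used log2((Cyp2e1 + 1)/(Cyp2f2 + 1)) in barcodes with 5 or more UMIs of both genes together (7106, 9186, 9116, 8506 and 10041 barcodes at 0, 8, 16, 24 and 30 h), with ties broken at random (seed 1). Correlations were taken from moments of shares of UMIs after the multinomial counting part was removed, without a p-value. The steps were tested on simulated data. The simulated zones had no gradient of depth or Alb along the rank, so they do not show how the zone step behaves with such gradients. Gene positions came from GENCODE M21, with 64 of 64 identifiers matched, and promoter windows from RefSeq. The members, lists and naming rule were chosen with earlier results of these data known. Named genes were the 3 closest over time to each enzyme, its 3 highest and 1 lowest correlations at 0 h, and listed panel genes, of which 1 is not reported here. The bin-by-bin step from 24 to 30 h and the comparison with Pck1 were chosen after values were seen. Python 3.11.15, numpy 2.4.6, scipy 1.17.1 and pandas 2.3.3 were used.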

Additional observations from a re-analysis of the deposited data

Results flagged for a closer look

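The zone ratio of Acly, the log2 ratio of its panel CPM in bin 5 (pericentral side) to bin 1 (periportal side), was 0.32 at 0 h and had the opposite sign at 16 h (-0.089), 24 h (-0.17) and 30 h (-0.26), with each counting interval clear of 0. These differ from 0 h by -0.41, -0.49 and -0.58, and without Alb by -0.66, -0.78 and -0.81. Each time is 1 library, and the difference was not tested.

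From 24 to 30 h, Fasn changed by 0.41 on the log2 scale in bin 1 and by -0.41 in bin 5, in panel CPM, with both counting intervals clear of 0. Bin 1 stayed between 0.23 and 0.44 and bin 5 between -0.55 and -0.34 under the 8 alternatives run for this step. Here too 1 library stands for each time, bins of the same number need not hold like cells, and the difference was not tested.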

How the results depend on the processing

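The fall of each enzyme against 0 h kept its direction under the alternatives run, as did its order. The Acaca change at 8 h was no longer over 2-fold without Alb (-0.99) and as the mean of per-barcode CPM (-0.74). The log2 shift of the panel's median gene against the value with all UMIs was -1.68 at 8 h, -0.69 at 16 h and 0.22 at 24 h per barcode. Per barcode, 40 panel genes were over 2-fold below 0 h at 8 h and 2 above, against 7 and 10 in panel CPM.

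The zone ratio of single enzymes turned with the denominator. Without Alb it was -0.31 (0 h), -0.15 (8 h), -0.42 (16 h) and -0.16 (24 h) for Fasn, -0.55 (0 h), -0.17 (8 h) and -0.49 (24 h) for Acaca, and -0.45 (0 h) and -0.12 (8 h) for Acly. Without Alb, Cyp2e1 and Cyp2f2 it was -0.16 (0 h), -0.0097 (8 h) and -0.17 (16 h) for Fasn, -0.40 (0 h), -0.031 (8 h) and -0.14 (24 h) for Acaca, and -0.31 (0 h) for Acly. Per barcode it was -0.40 (0 h), -0.10 (8 h) and -0.18 (16 h) for Fasn, -0.64 (0 h), -0.12 (8 h) and -0.18 (24 h) for Acaca, and -0.55 (0 h) and -0.070 (8 h) for Acly. The Fasn zone ratio at 16 h minus that at 0 h turned to -0.11 without Alb, -0.0043 without Alb, Cyp2e1 and Cyp2f2, and -0.033 with 10 bins.

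The enzymes lower in bin 5 numbered 0, 0, 1, 1 and 1 at 0, 8, 16, 24 and 30 h. They numbered 3 at each time without Alb, 3, 2, 3, 2 and 3 without Alb, Cyp2e1 and Cyp2f2, and 3, 3, 3, 2 and 3 per barcode. There were 2 at 30 h with 10 bins and 2 at 16 h with 20 or more zone UMIs. The correlation of Fasn and Acaca at 24 h turned to -0.0097 without Alb, Cyp2e1 and Cyp2f2. Pairs of enzymes over 0.3 numbered 3, 3, 1, 2 and 3, where from 16 h on the pairs with Acaca rest on under 0.5 Acaca UMIs per barcode and are not read. They numbered 1 at 24 h without Alb, 1 at 0 h and 0 at 24 h without Alb, Cyp2e1 and Cyp2f2, and 2 at 16 h in barcodes with 500 or more UMIs. With counting noise kept on a log2 scale there was 1 at 8 h and 0 at 16, 24 and 30 h, and in thinned barcodes 1 at 0 h, 1 at 8 h and 0 later. Beyond the effect of the denominator itself, the cause was not tested.

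The Fasn to Acly ratio along the zone rank and the Fasn step from 24 to 30 h kept their direction under the alternatives run for them, the former at 0, 16, 24 and 30 h. These alternatives were chosen after seeing the data. No paired analysis was possible because each time is 1 library. The low depth of the 8 h library limits its correlations and its bins, and no alternative replaces a second library per time.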
